A study of Moricandia arvensis and Moricandia suffruticosa and Moricandia moricandioides with 78 samples.

Results

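The aquaporin family was followed through all 78 leaf libraries of a drought and rewatering experiment on 3 species of Moricandia, wild relatives of the cabbages in the Brassicaceae. The family was taken as a fixed list of 35 Arabidopsis thaliana gene identifiers, 35 of the 33602 features in the tables. Membership followed the gene family and no measured value, although the family was taken up with earlier results of these data known. Of the 35 members, 13 belong to the plasma membrane intrinsic proteins (PIPs), 10 to the tonoplast intrinsic proteins (TIPs), 9 to the NOD26-like intrinsic proteins (NIPs) and 3 to the small basic intrinsic proteins (SIPs). The files give identifiers without gene names, so each member is called here by its Arabidopsis identifier and its subfamily.

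Aquaporins are membrane channels that let water, and in some members carbon dioxide, boric acid, glycerol, ammonia or hydrogen peroxide, pass down their gradients. PIPs sit mainly in the plasma membrane and TIPs mainly in the tonoplast, the membrane of the vacuole, so that together they set much of the water permeability of a plant cell. NIPs are better known for carrying small uncharged solutes such as boric acid, and SIPs are found in the endoplasmic reticulum. In leaves, PIPs and TIPs are the abundant classes, and both transcription and trafficking of the proteins are known to respond to water deficit.

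Moricandia moricandioides (Mmo) is a C3 species, whereas Moricandia arvensis (Mav) and Moricandia suffruticosa (Msu, a tetraploid) carry out C2 photosynthesis, in which photorespired carbon dioxide is released and recaptured around the veins. Fully expanded leaves were collected at T0 from well-watered plants, at T1 when stomatal conductance of droughted plants had fallen to about 50% of its starting value, at T2 at about 10%, and after rewatering (RW). Control plants were watered daily and are labelled 100% at every stage. The groups held 3 droughted and 4 control libraries at T1, 3 droughted and 2 control libraries at T2, 4 rewatered and 4 control libraries at RW and 4 control libraries at T0 in Mmo. In Mav they held 1 droughted and 4 control libraries at T1, 5 and 5 at T2, 4 rewatered and 5 control libraries at RW and 5 at T0. In Msu they held 3 droughted and 4 control libraries at T1, 4 droughted and 3 control libraries at T2, 4 rewatered and 3 control libraries at RW and 4 at T0. Each species was represented by 1 seed accession, so that a difference between species is a difference between these accessions.

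Total estimated counts ran between 22346621 and 41675513 per library (median 31633176), and the 35 aquaporins together took 0.144 to 1.14% of them. Reads had been assigned to Arabidopsis coding sequences and not to a Moricandia genome, so the share of reads captured may differ by gene and by species; this was not measured. Reads of similar members, such as AT2G37170 and AT2G37180, can be divided between them by the assignment, and the tables do not show how. In whole leaves, fewer cells of one type and less RNA per cell cannot be told apart. Leaf mesophyll markers were abundant in every group, whereas the summed root markers (3 genes) never exceeded 8.93 CPM. Summed seed markers (3 genes) stayed at or below 5.97 CPM except for 3 Mmo control libraries, M6c at T1 (114 CPM) and M21c and M24c at RW (80.01 and 92.0 CPM), where AT5G44120 supplied at least 99.8% of the marker counts. The part of these 3 libraries' seed markers in the results at T1 and RW was not tested.

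Several libraries stood apart from their labels. Among 116 pairs of libraries within a group, 20 pairs differed by only 1.607 to 3.925 times the counting noise, against 6.475 for the next closest pair, so that groups hold fewer distinct profiles than libraries. In Msu at T2, controls S33c and S36c were as close to droughted S5s and S8s (1.79 to 2.21 times the counting noise), and these 4 libraries, together with the Msu controls at RW (S5c, S6c and S7c), correlated more with the mean Mmo profile at T0 (r = 0.89 to 0.90) than with that of Msu (r = 0.87 to 0.88). Library A37s of droughted Mav at T2 correlated about as well with the T0 mean of Mmo (r = 0.78) as with that of Mav (r = 0.77). Results that rest on these libraries are given with and without them.

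A few members carried most of the family's transcripts. AT2G45960 (PIP) averaged 1070 TPM over the 78 libraries, 27.4% of all aquaporin TPM, where TPM is transcripts per 1000000 and is scaled for length so that genes can be set side by side. AT3G26520 (TIP) averaged 567 TPM, AT4G35100 (PIP) 408 TPM, AT2G36830 (TIP) 382 TPM and AT4G00430 (PIP) 379 TPM. The most abundant NIP, AT1G80760, averaged 23.8 TPM and the most abundant SIP, AT3G56950, 38.9 TPM. At the other end, AT5G47450 (TIP), AT2G34390 and AT1G31885 (both NIP) had a median count under 10 in every group, and their levels ran between 0 and 0.617, 0.119 and 0.0286 TPM in that order. These 3 and AT3G06100 (NIP) were too low to be tested in any comparison, which left 31 members that entered at least 1 test.

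**Figure D1:**
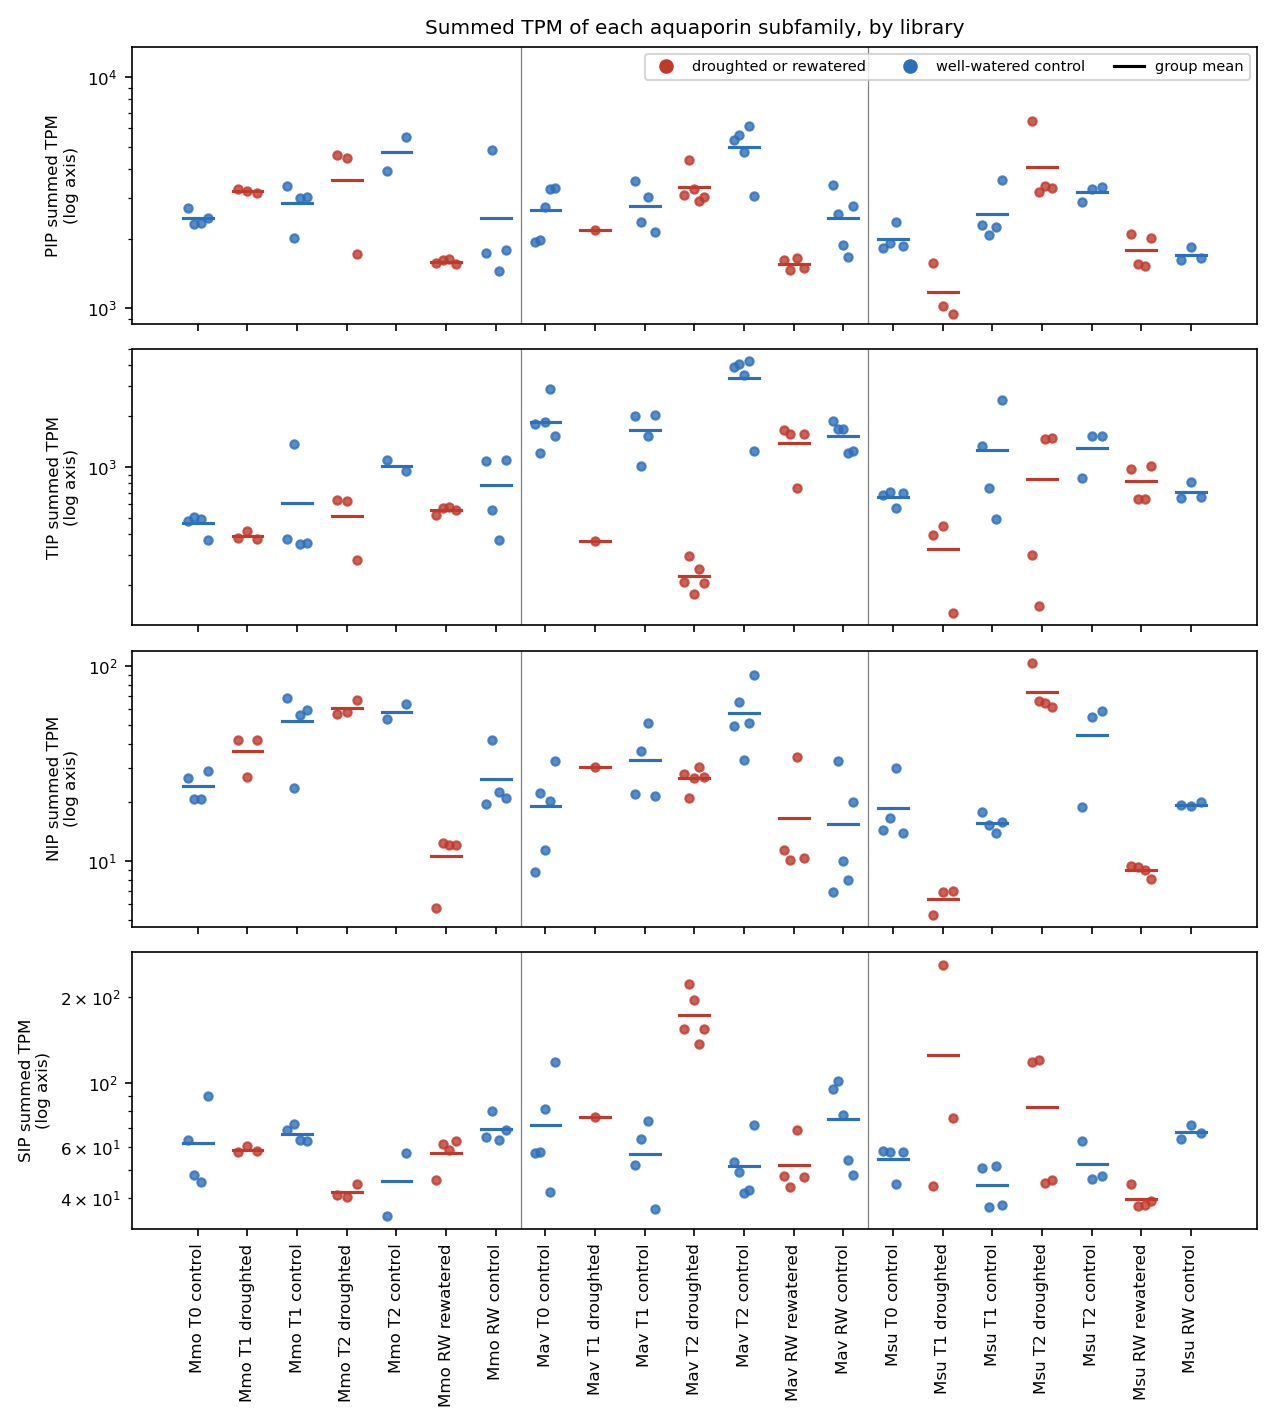
Summed TPM (log axis) of the 13 PIPs, 10 TIPs, 9 NIPs and 3 SIPs, one point per library, with the groups of Mmo, Mav and Msu side by side and droughted or rewatered plants left of their controls. The 5 droughted Mav libraries at T2 lie at 176 to 296 TPM for TIPs, below all 5 controls (1244 to 4227 TPM), and at 137 to 220 TPM for SIPs, above all 5 controls (41.5 to 71.8 TPM).

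The first comparison asked how aquaporin transcripts stood in well-watered leaves of the C3 and the C2 species. Mav had the larger TIP complement. TIPs made up 12.6 to 17.5% of aquaporin TPM in Mmo at T0, against 30.5 to 47.2% in Mav and 19.04 to 26.7% in Msu. Summed TIP levels at T0 were 462 ± 63.2 TPM in Mmo, 1858 ± 644 TPM in Mav and 664 ± 62.6 TPM in Msu (mean ± SD, n = 4, 5 and 4). PIP sums were 2449 ± 182, 2645 ± 674 and 1987 ± 249 TPM in the same order, ranges that overlap. The most abundant PIP, AT2G45960, stood at 958 ± 139 TPM in Mmo, 952 ± 276 TPM in Mav and 815 ± 66.5 TPM in Msu, and did not pass the test in any of the 3 pairs of species.

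Genes were tested on the counts with the quasi-likelihood F-test of edgeR and called at a Benjamini-Hochberg adjusted p under 0.05, over all genes tested, with an absolute log2 fold change above 1. Every adjusted p given for a gene is from that test, and the ± after a log2 fold change is its standard error. Of 26 members tested between Mmo and Mav at T0, 4 were higher and 9 lower in Mmo, against 14.4% higher and 17.4% lower among all genes tested. The median log2 fold change of the 7 tested TIPs was -2.15, against 0.01 over all genes, and 5 of the 7 were lower in Mmo. AT3G16240 (TIP) had 13.7, 14.02, 15.7 and 19.3 CPM in the Mmo libraries, against 48.5, 148, 189, 262 and 279.6 CPM in the Mav libraries, where CPM is counts per 1000000 after scaling of the library sizes. The groups did not overlap, and the log2 fold change was -3.55 ± 0.46, adjusted p = 0.000191. The 2 most abundant TIPs were also lower in Mmo without overlap, AT2G36830 (-2.15 ± 0.36, adjusted p = 0.000828) and AT3G26520 (-1.78 ± 0.37, adjusted p = 0.00284). AT3G47440 (TIP) differed by -2.58 and AT4G17340 (TIP) by -5.70, though the Mav libraries ranged between 0.136 and 9.47 CPM for AT4G17340 and overlapped those of Mmo. AT4G01470 was the exception among the TIPs, with a log2 fold change of 3.55 ± 0.73, adjusted p = 0.0028.

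Among PIPs, 4 were lower and none higher in Mmo than in Mav at T0. AT2G39010 had 15.5, 18.9, 32.3 and 36.5 CPM in Mmo and 76.8, 135, 177, 187 and 243 CPM in Mav. Every Mmo library lay below every Mav library (-2.65 ± 0.37, adjusted p = 0.000319). AT4G23400, AT3G54820 and AT2G16850 differed by -4.45, -3.23 and -1.40 on the log2 scale. Of the NIPs, AT4G18910 and AT4G19030 were the members higher in Mmo, at 3.73 and 3.46. AT4G18910 reached 3.33, 4.81, 5.24 and 6.12 CPM in Mmo, against 0.108, 0.235, 0.375, 0.476 and 0.623 CPM in Mav, without overlap. The SIP AT5G18290 was called higher in Mmo (3.37 ± 1.00, adjusted p = 0.0192), but library M12c alone held 25.8 CPM while the other 3 held 1.20 to 2.97 CPM, and without M12c the log2 fold change was 1.36 and the call was lost.

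Between Mmo and Msu the abundant TIPs AT2G36830 (-0.62 ± 0.28, adjusted p = 0.0991) and AT3G26520 (-0.42 ± 0.23, adjusted p = 0.153) did not pass the test at T0. In that comparison 6 of 28 members were higher and 6 lower in Mmo, against 15.4% and 16.9% of all genes tested. AT3G61430 (PIP) had 165, 202, 204 and 301 CPM in Mmo and 13.52, 13.7, 15.4 and 29.01 CPM in Msu, a gap without overlap (3.62 ± 0.32, adjusted p = 3.51e-05). AT1G01620 (PIP) was higher by 1.15, but not without M1c (0.88) or S38. AT4G01470 (TIP), AT4G19030 and AT4G18910 (both NIP) were higher in Mmo by 3.48, 3.83 and 3.97, as they were against Mav. AT5G18290 was again called (3.44) and again lost without M12c (1.47), and also without S38 or S42. Of the 12 calls, 4 were lost when near-identical libraries were summed, and 4 with limma on log2(TPM + 1). Lower in Mmo were AT2G39010 (-2.15), AT4G23400 (-2.79), AT4G17340 (-6.43) and AT3G47440 (-2.88).

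The remaining members lower in Mmo than in Msu were the NIPs AT5G37810 and AT5G37820. AT5G37810 had 0 counts in all 4 Mmo libraries at T0, against 1.31, 1.34, 1.62 and 5.74 CPM in Msu and 0 to 2.99 CPM in Mav. Set against a floor of 3 counts over the group, it was at least 98.2-fold lower in Mmo than in Msu and at least 33.4-fold lower than in Mav, an amount that rests in Mav on A4 (1.57 CPM) and A46 (2.99 CPM). AT5G37820 followed the same libraries, with 0, 0, 0.0319 and 0.0838 CPM in Mmo, 0, 0.0271, 0.0359, 3.85 and 6.52 CPM in Mav and 2.11, 2.86, 2.92 and 8.298 CPM in Msu (-6.75 ± 0.80, adjusted p = 0.000165).

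Between Mav and Msu at T0, 8 of 28 members were higher in Mav and 0 lower (9 passed an unadjusted p under 0.05; DESeq2 also gave 8 higher and 0 lower, and limma 7 and 0), against 7.77% higher and 6.70% lower among all genes tested. These 8 were 5 PIPs and 3 TIPs. AT3G16240 had 48.5, 148, 189, 262 and 279.6 CPM in Mav, against 10.2, 10.7, 11.3 and 25.98 CPM in Msu (3.67 ± 0.53, adjusted p = 0.00136), again without overlap. AT2G36830 and AT3G26520 were higher in Mav by 1.53 and 1.36, also without overlap. The PIPs were AT3G61430 (2.59), AT3G54820 (2.27), AT4G23400 (1.66), AT1G01620 (1.55) and AT4G35100 (1.31). The T0 libraries of each pair of species ran on different sequencing lanes, so lane and species cannot be told apart, and when near-identical libraries were summed only 2 of these 8 calls were made.

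**Figure D2:**
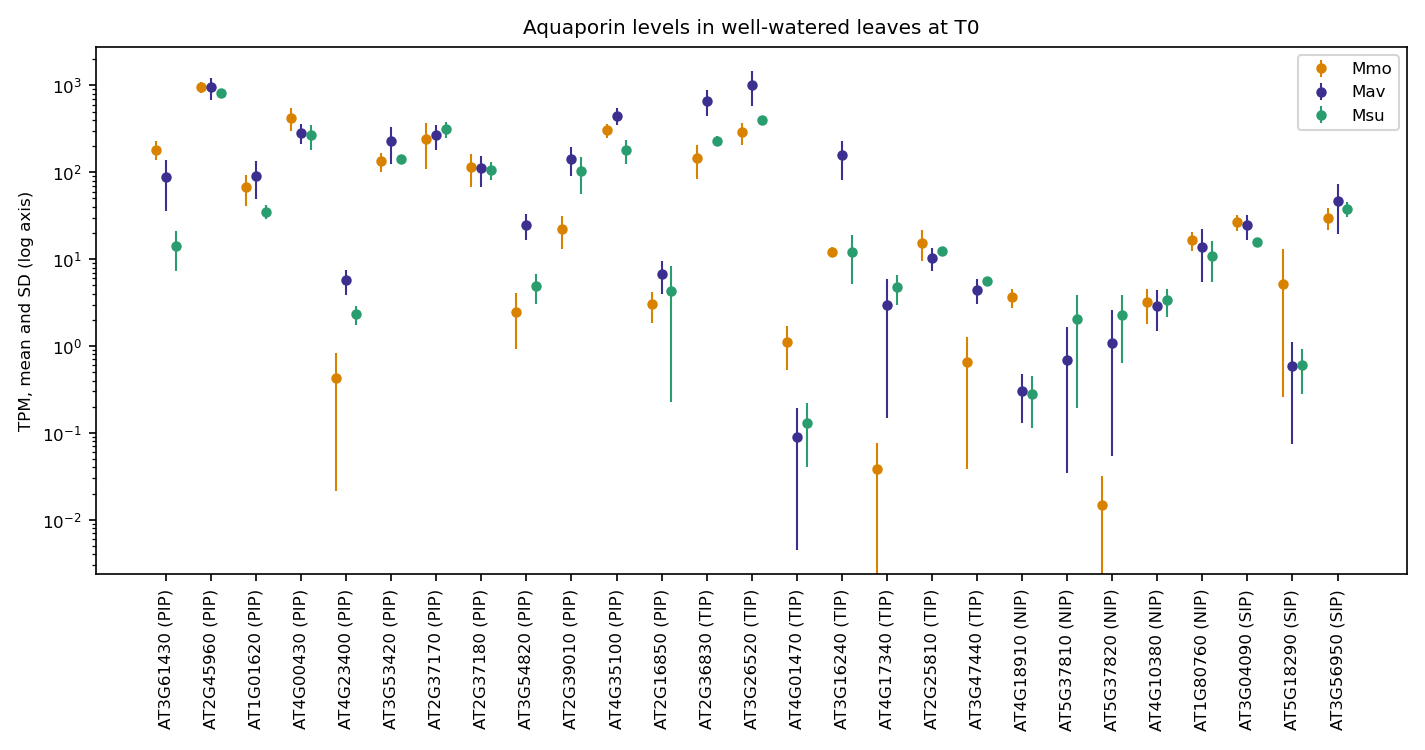
Mean TPM (log axis) with SD in well-watered leaves at T0 for the members with a mean of at least 1 TPM in a species, Mmo, Mav and Msu side by side (n = 4, 5 and 4). No bar reaches more than 95% of the mean downwards, and AT5G37810, at 0 in Mmo, has no Mmo point. AT3G16240 stands at 12.2 TPM in Mmo, 156 TPM in Mav and 12.0 TPM in Msu.

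The central comparison set severely droughted leaves (T2) against watered controls of the same stage. In Mav, against the controls of T2, the abundant TIPs and most PIPs were lower. In the same comparison 2 SIPs, 2 less abundant PIPs and 1 TIP that was near 0 in controls were higher. TIPs made up 4.78 to 7.45% of aquaporin TPM in droughted Mav leaves, against 27.96 to 42.01% in controls. Their summed level was 226 ± 46.6 TPM in droughted and 3389 ± 1229 TPM in control leaves (mean ± SD, n = 5 each). Mav controls of other stages had lower mean TIP sums, 1858 TPM at T0, 1649 TPM at T1 and 1536 TPM at RW, all above droughted leaves. Mean PIP sums were 3337 TPM in droughted leaves and 4971 TPM in T2 controls, but 2645, 2757 and 2451 TPM in controls at T0, T1 and RW. The PIP sum of droughted leaves was thus lower only against the T2 controls. Of 26 members tested, 5 rose and 12 fell, against 11.6% and 16.6% of all genes tested. Median log2 fold changes were -3.76 for the 7 tested TIPs, -1.15 for the 13 PIPs, -0.44 for 3 NIPs and 1.55 for the 3 SIPs, against -0.01 over all genes.

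AT3G26520, the most abundant TIP, had 45.98, 54.9, 58.9, 76.5 and 89.3 CPM in droughted Mav leaves, against 493, 1310.2, 1668, 2249 and 2395 CPM in controls (-4.65 ± 0.43, adjusted p = 1.61e-05). AT2G36830 had 77.7, 131, 142, 148 and 177 CPM in droughted leaves, against 861, 1798, 1868, 2369.8 and 2902 CPM in controls (-3.86 ± 0.35, adjusted p = 1.45e-05). In both, every droughted library lay below every control library, with A22c the lowest control. AT3G16240 had 2.84, 4.42, 4.64, 11.4 and 13.3 CPM in droughted leaves, against 29.9, 340.0, 469, 531 and 649 CPM in controls (-5.78 ± 0.79, adjusted p = 0.000178). Here A22c, at 29.9 CPM, stood far below the other controls yet above all droughted libraries. The low TIP AT4G17340 also fell, with 0, 0.0292, 0.101, 0.159 and 0.160 CPM in droughted leaves and 0.538, 0.988, 1.42, 1.604 and 1.73 CPM in controls (-3.76 ± 0.67, adjusted p = 0.001).

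One TIP moved the other way. AT1G73190 had 4.08, 5.09, 15.05, 39.8 and 52.5 CPM in droughted Mav leaves, against 0.0468, 0.147, 0.160, 0.174 and 0.178 CPM in controls (7.37 ± 0.88, adjusted p = 7.59e-05). The droughted libraries spread over more than a factor of 10 but none came near the controls. AT1G17810 (TIP) was too low to be tested in Mav, with 0.0799, 0.146, 1.21, 2.91 and 3.902 CPM in droughted leaves and 0, 0, 0.0581, 0.0590 and 0.0641 CPM in controls. AT2G25810 (0.22 ± 0.32, adjusted p = 0.61) and AT3G47440 (0.56 ± 0.30, adjusted p = 0.152) did not pass the test. The 3 seed markers summed to 0.438 to 1.62 CPM in droughted Mav leaves and 0.321 to 0.501 CPM in controls. Only 1 of them could be tested, and it was not called.

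Of the 13 PIPs, 7 fell, 2 rose and 4 did not pass. AT3G53420 had 148, 150.3, 153, 159 and 189 CPM in droughted leaves, against 357, 685, 888, 1097 and 1185 CPM in controls (-2.41 ± 0.30, adjusted p = 9.39e-05). AT2G37170 had 184, 243, 245, 249 and 279 CPM in droughted leaves, against 583, 618, 778, 795 and 946 CPM in controls (-1.64 ± 0.19, adjusted p = 5.86e-05). Both changed without overlap, as did AT2G37180 (-1.55), AT4G35100 (-1.41), AT2G39010 (-1.68) and AT3G54820 (-1.70). AT3G61430 fell by less (-1.15 ± 0.32, adjusted p = 0.0123), and without A9c its log2 fold change was -0.79 and it was no longer called. Unscaled counts of AT3G53420, AT2G37170, AT2G37180, AT4G35100 and AT3G61430 in T0 controls overlapped those of droughted leaves, a comparison that was not tested. For AT2G37180 they were 2770 to 6399 at T0 and 2856 to 4774 in droughted leaves. Those of AT2G39010 (2834 to 8186 and 259 to 1493) and AT3G54820 (484 to 1265 and 148 to 375) did not overlap. The most abundant member, AT2G45960, had 1279, 1344, 1393, 1448 and 2585 CPM in droughted leaves, against 1119, 1844, 2119, 2181 and 2361 CPM in controls (-0.26 ± 0.27, adjusted p = 0.471), groups that overlap. AT4G00430 (0.71 ± 0.31, adjusted p = 0.0861), AT1G01620 (-0.83 ± 0.39, adjusted p = 0.107) and AT2G16850 (-0.89 ± 0.49, adjusted p = 0.171) likewise did not pass. The PIPs that rose were less abundant ones. AT5G60660 had 1.15, 2.84, 4.595, 4.86 and 5.23 CPM in droughted leaves and 0.117, 0.224, 0.262, 0.285 and 0.649 CPM in controls (3.59 ± 0.55, adjusted p = 0.000395), without overlap. AT4G23400 had 24.5, 29.99, 32.5, 35.2 and 47.8 CPM in droughted leaves and 4.87, 6.34, 12.6, 18.9 and 24.9 CPM in controls (1.33 ± 0.41, adjusted p = 0.0223), with an overlap through A9c.

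Among SIPs, AT5G18290 showed one of the larger increases. It had 46.5, 46.6, 46.7, 69.8 and 124 CPM in droughted Mav leaves, against 0.178, 0.668, 1.08, 1.12 and 1.298 CPM in controls (6.25 ± 0.51, adjusted p = 8.4e-06). AT3G56950 had 84.5, 134, 138, 138 and 158 CPM in droughted leaves, against 29.8, 38.8, 40.2, 48.8 and 65.01 CPM in controls (1.55 ± 0.23, adjusted p = 0.000333). Neither pair of groups overlapped. The third SIP, AT3G04090, differed by -0.78 ± 0.25, adjusted p = 0.0269, under the fold limit. Of the NIPs, AT1G80760 had 23.8, 24.3, 27.4, 29.6 and 30.5 CPM in droughted leaves, against 41.9, 58.5, 60.1, 90.5 and 106 CPM in controls (-1.40 ± 0.24, adjusted p = 0.000718). Its controls differed between stages, and only those of T2 were tested against droughted leaves. Its unscaled counts were 603, 742, 765, 902 and 939 in droughted leaves and 297, 432, 560, 578 and 1199 in the T0 controls. They were 835, 916, 1566 and 1840 in the T1 controls and 148, 242, 273, 648 and 1021 in the RW controls. AT4G18910 (-0.44 ± 0.43, adjusted p = 0.434) and AT4G10380 (0.46 ± 0.32, adjusted p = 0.271) did not pass. AT5G37810 had 0 counts in all 5 droughted libraries, at least 19.4-fold lower than the controls by the floor of 3 counts over the group, but A16c alone supplied 2.28 CPM while the other controls held 0 to 0.116 CPM.

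The Mav counts at T2 held up to leaving out each library (16 to 18 calls) and to summing near-identical libraries (17 calls), and a fit with the sequencing lane as a term, chosen after seeing the data, gave 15. All 7 drought marker genes rose in the same comparison (summed 11332 to 19886 CPM in droughted and 954 to 2421 CPM in control leaves). All 5 leaf mesophyll markers fell, with summed levels of 4620.2 to 6885 CPM in droughted leaves and 19905 to 38242 CPM in controls, and 2 of 3 epidermis markers fell. None of the 5 guard cell, 3 phloem or 3 xylem markers was called. The part of these marker changes in the aquaporin results was not tested.

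In Mmo, with 3 droughted and 2 control libraries at T2, 2 of 27 members tested rose and 2 fell, against 2.21% and 2.27% of all genes tested. TIPs made up 12.0 to 13.3% of aquaporin TPM in droughted Mmo leaves, against 14.3 and 21.5% in the 2 controls. AT1G73190 had 18.2, 21.2 and 75.1 CPM in droughted leaves, against 0.0314 and 0.124 CPM in controls (8.86 ± 1.16, adjusted p = 0.0226). AT1G17810 had 10.7, 14.6 and 34.1 CPM in droughted leaves, against 0 and 0.0314 CPM in controls. That is 1869 counts against 1, a ratio of 1215 with an exact Clopper-Pearson 95% interval of 218 to 48016 that covers counting error only (adjusted p = 0.0156). For both TIPs all 3 droughted libraries lay far above both controls. These 3 libraries hold 2 distinct profiles, since M17s and M19s are near-identical. Summed seed markers were 0.0866 to 0.151 CPM in droughted Mmo leaves and 0.0314 to 0.0618 CPM in controls.

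The members that fell in Mmo at T2 were AT2G39010 (PIP) and AT2G25810 (TIP). AT2G39010 had 4.996, 5.803 and 9.67 CPM in droughted leaves, against 28.1 and 32.96 CPM in controls (-2.17 ± 0.32, adjusted p = 0.0286). AT2G25810 had 5.02, 7.39 and 8.13 CPM in droughted leaves, against 23.4 and 30.2 CPM in controls (-1.98 ± 0.27, adjusted p = 0.0253). With 2 controls the calls were fragile: 0 of the 4 remained without M14c, M16c or M17s, the 2 rising TIPs remained without M19s, and 5 members were called without M20s. M20s had lower levels of several abundant members than the other droughted libraries. AT3G26520, for one, had 55.2, 173 and 174 CPM in droughted leaves, against 534 and 711 CPM in controls (-2.23 ± 0.52, adjusted p = 0.0746), which did not pass. AT2G36830 had 77.96, 452 and 464 CPM in droughted leaves, against 426 and 482 CPM in controls (-0.46 ± 0.72, adjusted p = 0.747), and the value of 77.96 CPM was that of M20s. AT2G45960 (-0.02 ± 0.53, adjusted p = 0.986), AT1G80760 (0.06 ± 0.17, adjusted p = 0.869), AT5G18290 (1.62 ± 0.51, adjusted p = 0.136) and AT3G56950 (-0.56 ± 0.21, adjusted p = 0.19) did not pass either. Of the 7 drought marker genes 3 rose in Mmo (summed 5163 to 5446 CPM in droughted and 487 to 1125 CPM in control leaves), and 0 of 5 mesophyll markers was called (median log2 fold change -0.92).

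**Figure D3:**
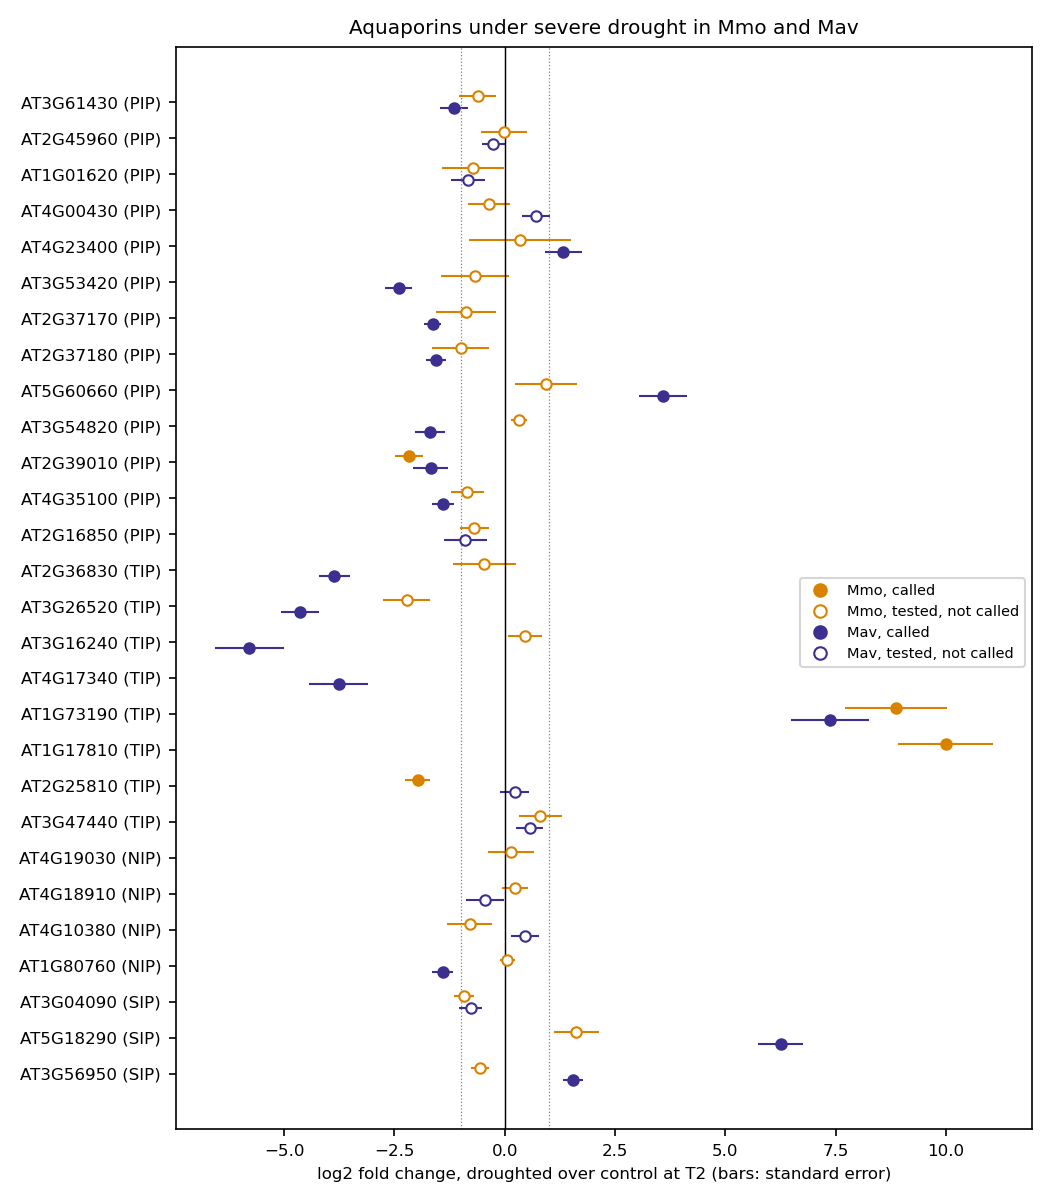
Log2 fold changes of droughted over control leaves at T2 with standard errors, for each member tested in Mmo or Mav. AT1G73190 lies at 8.86 in Mmo and 7.37 in Mav, whereas AT3G16240 lies at 0.47 in Mmo and -5.78 in Mav.

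Whether the 2 species responded differently was tested directly, as the log2 fold change in Mmo minus that in Mav in a fit of all 4 groups. Of 29 members, 5 had a more positive and 3 a more negative response in Mmo, against 2.76% and 2.43% of all genes tested. The more positive ones were 3 TIPs, AT3G16240 (6.25 ± 1.20, adjusted p = 0.0101), AT4G17340 (4.41 ± 1.19, adjusted p = 0.0446) and AT2G36830 (3.39 ± 0.77, adjusted p = 0.0215), with AT3G54820 (PIP, 2.02 ± 0.53, adjusted p = 0.0412) and AT1G80760 (NIP, 1.45 ± 0.37, adjusted p = 0.0363). The more negative ones were the SIPs AT5G18290 (-4.63 ± 0.73, adjusted p = 0.0039) and AT3G56950 (-2.12 ± 0.37, adjusted p = 0.00629) and the TIP AT2G25810 (-2.20 ± 0.52, adjusted p = 0.0251). Leaving out single libraries gave 1 to 9 calls, the fewest without the Mmo controls M14c (2) and M16c (1) or droughted M17s (3), and AT5G18290 alone was called in all 15 of these fits. AT4G17340 was called in 4 of them, AT3G54820 in 5 and AT1G80760 in 6. With lane as a term 3 of the 8 calls were kept, and 3 with near-identical libraries summed. Of the mesophyll markers, 3 of 5 also differed in response (median 1.80).

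Set side by side after severe drought, Mmo and Mav differed in 16 of 27 members, 7 higher and 9 lower in Mmo, against 17% and 15.2% of all genes tested. AT3G16240 had 44.4, 89.96 and 90.2 CPM in droughted Mmo and 2.84, 4.42, 4.64, 11.4 and 13.3 CPM in droughted Mav (3.34 ± 0.50, adjusted p = 0.000896), the reverse of the order of the 2 species at T0. AT1G17810 (3.58), AT1G80760 (1.44), AT4G18910 (1.88), AT4G19030 (1.42), AT3G54820 (1.20) and AT3G26520 (1.03) were the others higher in Mmo. AT3G56950 had 16.3, 16.9 and 17.2 CPM in droughted Mmo and 84.5, 134, 138, 138 and 158 CPM in droughted Mav (-2.96 ± 0.24, adjusted p = 5.47e-05), without overlap. The other members lower in Mmo were AT4G23400 (-5.38), AT3G47440 (-2.50), AT2G39010 (-1.96), AT2G16850 (-1.84), AT5G60660 (-1.74), AT5G18290 (-1.56), AT2G25810 (-1.27) and AT4G10380 (-1.03). Without M17s or M19s 10 members were called, and 7 of the 16 calls were lost without at least 1 library: AT2G39010, AT2G16850, AT3G26520, AT4G10380, AT4G19030 and AT5G60660 without M17s or M19s, among others, and AT1G17810 without M20s. With near-identical libraries summed, 9 members were called. Lane and species cannot be told apart in this comparison.

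**Figure D4:**
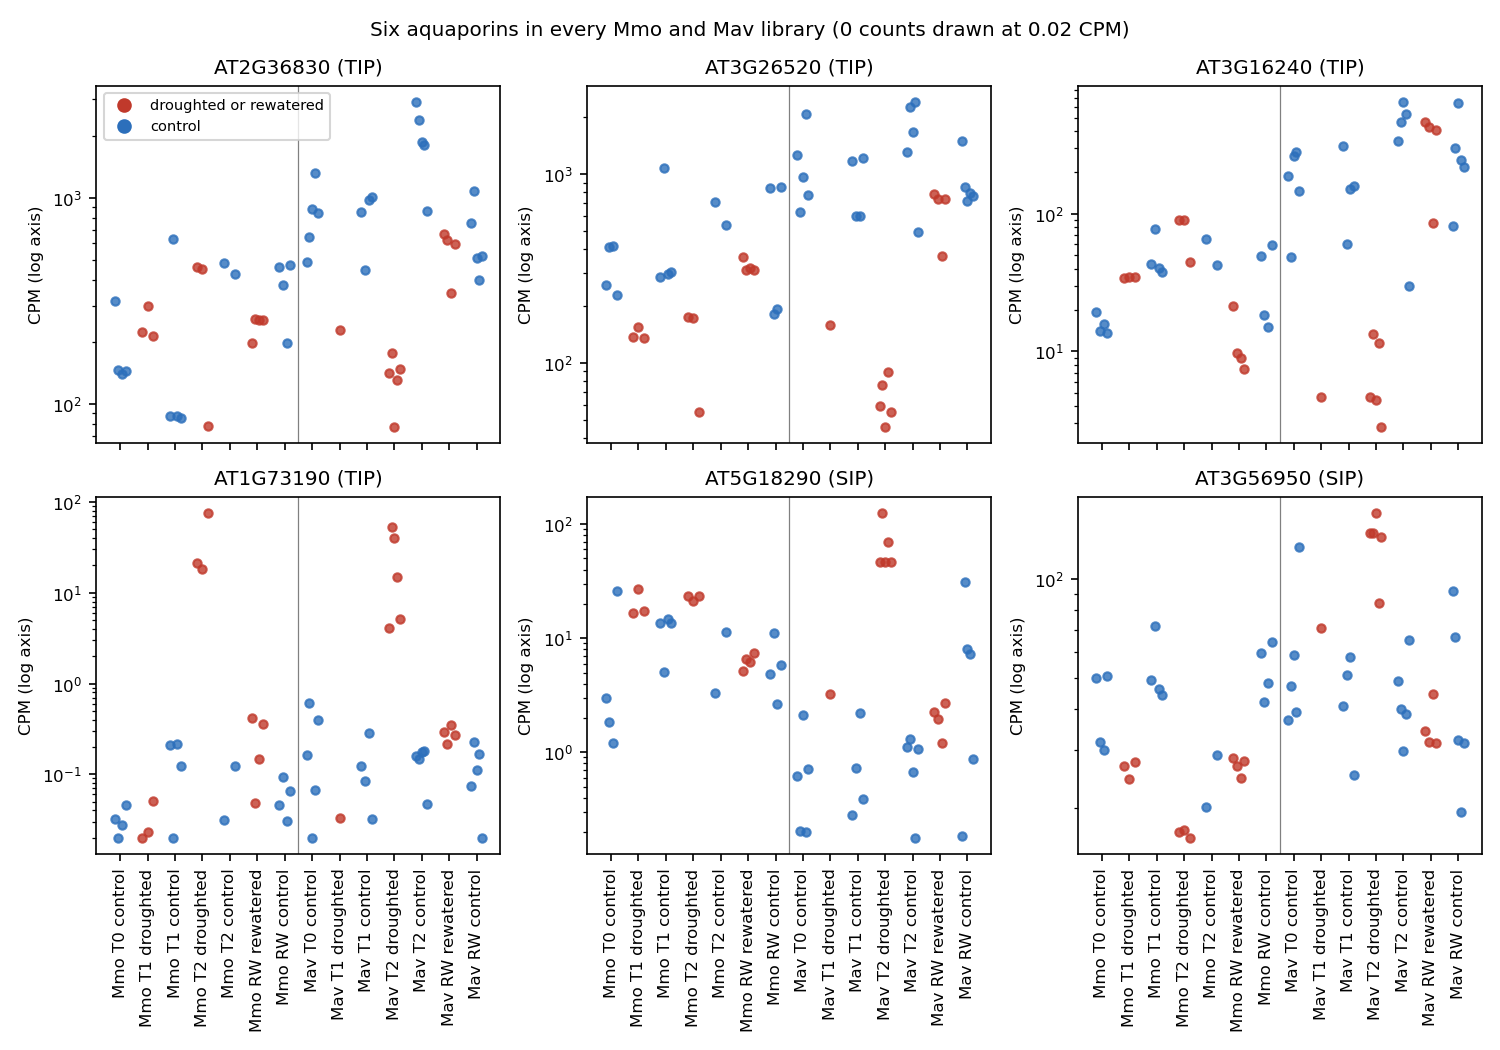
CPM (log axis, 0 counts drawn at 0.02) of 3 TIPs that fell in Mav (AT2G36830, AT3G26520 and AT3G16240), 1 TIP that rose (AT1G73190) and 2 SIPs (AT5G18290 and AT3G56950), one point per library, for Mmo and Mav with droughted or rewatered plants left of their controls. At T2, AT1G73190 lies at 18.2 to 75.1 CPM in droughted Mmo and 4.08 to 52.5 CPM in droughted Mav, and at no more than 0.178 CPM in the controls of both.

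In Msu at T2, 0 of 29 members was called higher or lower, and 0% of all genes tested rose and 0% fell. At an unadjusted p under 0.05 there were 2 members, and DESeq2 and limma also called 0. This comparison holds the near-identical droughted and control libraries described above. AT3G61430 (PIP) did not separate by label, with 299 and 313 CPM in droughted S8s and S5s and 305 and 309 CPM in controls S33c and S36c, but 26.1 and 50.9 CPM in droughted S4s and S2s and 35.5 CPM in control S28c. When the 2 remaining droughted libraries, S2s and S4s, were set against the Msu controls at T0, a comparison chosen after seeing the data, 9 members were higher and 5 lower, against 11.3% and 11.8% of all genes tested. AT5G18290 (SIP) had 20.0 and 41.9 CPM in S2s and S4s, against 0.144, 0.746, 0.982 and 0.994 CPM in the T0 controls (log2 fold change 5.42, adjusted p = 0.00118). AT1G80760 (NIP) had 137 and 91.7 CPM in these droughted libraries, against 10.8, 11.6, 12.1 and 25.5 CPM in the T0 controls (2.96, adjusted p = 0.00195). AT5G60660 (3.46), AT4G00430 (2.60), AT4G23400 (2.37), AT1G01620 (2.29) and AT2G45960 (1.33), all PIPs, AT3G47440 (TIP, 1.24) and AT3G56950 (SIP, 1.40) were also higher. AT2G39010 (-3.65), AT3G26520 (-2.32), AT3G04090 (-1.29), AT5G37810 (-3.40) and AT5G37820 (-3.94) were lower. Time and treatment both differ between these droughted libraries and the T0 controls and cannot be told apart, and the 4 T0 controls hold 2 distinct profiles. Against S28c, the T2 control outside the near-identical set, each of these members kept its direction. The same droughted S2s and S4s enter there, so this is not a separate test. There the log2 fold changes were 5.75 for AT5G18290, 2.24 for AT1G80760, 0.81 for AT3G47440, 0.66 for AT3G56950 and 0.35 for AT2G45960, a single control library.

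At T1, when stomatal conductance of droughted plants was at about 50%, 0 of 25 members rose in Mmo and 6 fell, against 6.72% and 11.1% of all genes tested; 12 passed an unadjusted p under 0.05, and none was called higher by DESeq2 or limma. AT5G60660 (PIP) had 0.0694, 0.0966 and 0.127 CPM in droughted Mmo leaves, against 1.18, 1.59, 1.65 and 2.15 CPM in controls (-4.04 ± 0.38, adjusted p = 0.000519). AT4G01470 (TIP) had 0.0242, 0.0254 and 0.0694 CPM in droughted leaves, against 0.529, 0.607, 0.959 and 1.301 CPM in controls (-4.29 ± 0.58, adjusted p = 0.00199). Both are low members, and neither pair of groups overlapped. For AT5G60660 the Mmo controls held 1 to 4 counts at T0 and 33 to 51 at T1, and droughted leaves 3 to 5. Its droughted leaves thus stood near the T0 level, below raised T1 controls. For AT4G01470 the controls held 23 to 108 counts at T0 and 17 to 37 at T1, and droughted leaves 1 to 3. AT2G25810 (TIP) had 9.25, 9.83 and 11.01 CPM in droughted leaves, against 19.3, 19.4, 20.4 and 25.4 CPM in controls (-1.09 ± 0.13, adjusted p = 0.00142), also without overlap. AT3G26520 fell as well, with 135, 137 and 155 CPM in droughted leaves and 286, 296, 304 and 1074 CPM in controls (-1.81 ± 0.54, adjusted p = 0.0387). Its highest control, M6c, stood apart in many members. Without M6c the log2 fold change was -1.08, still called, while the call was lost without M12s, M7s or M8s. The other calls were AT3G56950 (SIP, -1.02 ± 0.20, adjusted p = 0.00782), lost without M6c or M8s, and AT1G80760 (NIP, -1.06 ± 0.32, adjusted p = 0.0393), kept only without M6c. Leaving out M8s gave 3 calls. Of the drought markers 4 of 7 rose here, all 3 xylem markers and both tested epidermis markers fell, and the 1 tested root marker fell. Of the phloem markers 1 of 3 rose, as did the 1 tested pollen and anther marker. Summing near-identical libraries gave 3 member calls and a fit with lane as a term 2. On the TPM scale, limma called 1 member, and the balance of all calls turned there. Higher calls were 37.8% of all genes called by edgeR and 68.5% by limma on log2(TPM + 1), and the median over all genes was -0.02 on the first scale and 0.25 on the other.

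In Msu at T1, 0 of 29 members was called, against 0.137% of all genes tested higher and 0.0305% lower. An unadjusted p under 0.05 was reached by 13 members, DESeq2 called 11 (3 higher and 8 lower) and limma 1, and without S10s edgeR called 5. AT4G35100 (PIP) had 104, 125 and 212 CPM in droughted leaves, against 445, 549, 1124 and 1491 CPM in controls (-2.58 ± 0.51, adjusted p = 0.067). AT5G18290 (SIP) had 7.07, 12.2 and 176 CPM in droughted leaves, against 0.516, 1.07, 1.12 and 3.06 CPM in controls (5.55 ± 1.17, adjusted p = 0.0725). The groups do not overlap for either gene, and in the SIP S13s stood far above the other droughted libraries. AT1G80760 (NIP) had 1.38, 2.196 and 3.84 CPM in droughted leaves and 6.73, 10.3, 11.5 and 15.6 CPM in controls (-2.11 ± 0.44, adjusted p = 0.0726).

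Mav had a single droughted library at T1, A34s, so that no difference could be tested. AT3G16240 stood at 4.63 CPM in A34s, against 59.9 to 314 CPM in the 4 controls. AT3G26520 stood at 158 CPM, against 596 to 1213 CPM, and AT2G36830 at 229 CPM, against 447 to 1012 CPM. A34s thus lay below the range of the controls in these 3 TIPs, and TIPs made up 13.7% of its aquaporin TPM, against 29.2 to 48.3% in the controls. AT5G18290 (SIP) stood at 3.22 CPM, against 0.281 to 2.21 CPM, and AT3G56950 (SIP) at 70.7 CPM, against 25.2 to 57.9 CPM, both above the controls. AT1G73190 was at 0.0328 CPM, within the 0.0325 to 0.287 CPM of the controls.

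After rewatering, the levels were compared first with watered controls of the same stage. In Mav 0 of 26 members was called, against 0.173% of all genes tested higher and 0.0917% lower. An unadjusted p under 0.05 was reached by 8 members, DESeq2 called 5 (1 higher and 4 lower) and limma 1, and edgeR called 2 without A40s and 1 without A6c. TIPs made up 29.9 to 50.8% of aquaporin TPM in rewatered and 30.6 to 45.9% in control Mav leaves. AT3G16240 had 85.6, 410.3, 429 and 469.7 CPM in rewatered leaves and 80.9, 220.3, 246, 302 and 639.9 CPM in controls (0.24 ± 0.58, adjusted p = 0.848), with A40s the lowest of the rewatered libraries. AT2G37180 (PIP) had 34.3, 36.2, 44.8 and 93.8 CPM in rewatered leaves and 62.6, 78.7, 205, 233 and 578 CPM in controls (-2.15 ± 0.66, adjusted p = 0.149). The groups overlapped in both genes. The controls of this stage spread widely, by more than a factor of 5 in AT3G53420, AT2G37170 and AT2G37180. Of the few genes called in all, 65.4% were higher by edgeR, 85.6% by limma on log2(TPM + 1) and 45.6% by DESeq2.

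In Mmo at RW, 0 of 24 members rose and 1 fell, against 0.0669% and 0.113% of all genes tested (9 passed an unadjusted p under 0.05; DESeq2 called 0 higher and 5 lower, limma 0 and 1). AT1G80760, the most abundant NIP, had 3.73, 3.81, 3.86 and 3.94 CPM in rewatered leaves, against 19.1, 27.1, 30.4 and 46.5 CPM in controls (-3.02 ± 0.27, adjusted p = 0.0158). The groups did not overlap, and the log2 fold change stayed between -3.20 and -2.75 when single libraries were left out, but the call was lost without M21c, M24c, M26s, M27s or M28s. It was also lost when near-identical libraries were summed. Leaving out M23c gave 5 calls, M25s 4 and M22c 2. Rewatered and control libraries ran on different lanes, which cannot be told apart from the treatment.

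In Msu at RW, 6 of 29 members were higher and 8 lower in rewatered leaves than in the controls of that stage, against 15.6% and 15.9% of all genes tested. Those controls are the 3 libraries that resembled Mmo more than Msu. AT5G37820 (NIP) had 2.03, 2.13, 3.77 and 3.98 CPM in rewatered leaves, against 0, 0.0287 and 0.0965 CPM in controls (5.84 ± 0.61, adjusted p = 7.14e-05). AT4G17340 (TIP) had 5.74, 6.34, 7.29 and 9.03 CPM in rewatered leaves, against 0.0860, 0.171 and 0.217 CPM in controls (5.39 ± 0.32, adjusted p = 3.67e-06). Also higher were AT5G37810 (4.26), AT3G47440 (3.45), AT4G23400 (3.08) and AT2G16850 (1.51). Lower were AT4G18910 (-4.38), AT4G01470 (-4.04), AT4G19030 (-3.34), AT2G25810 (-1.87), AT1G80760 (-1.83), AT3G61430 (-1.68), AT5G18290 (-1.39) and AT3G04090 (-1.03). Leaving out 1 library gave 13 to 15 calls, with AT3G04090 lost without S2s or S3s and AT5G18290 lost without S6c or S7c. Of all genes called, 49.5% were higher by edgeR and 39.2% by limma on log2(TPM + 1). In this comparison 5 of 7 drought markers, 2 of 2 tested pollen and anther markers, 1 of 5 mesophyll and 1 of 5 guard cell markers were higher. Lower were 2 of 3 xylem markers and 1 of 3 epidermis markers. Their part in the result was not tested.

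Set against the Msu controls at T0 in their place, 1 member was higher and 6 were lower in rewatered Msu leaves, against 4.82% and 7.04% of all genes tested. AT5G37820 (-0.45, adjusted p = 0.489), AT5G37810 (-0.51, adjusted p = 0.528) and AT5G18290 (1.49, adjusted p = 0.0951) changed sign and lost their calls, and AT4G23400 changed sign and was called lower (-1.61, adjusted p = 0.00283). Calls were also lost by AT4G17340 (0.01, adjusted p = 0.986), AT3G47440 (0.21), AT4G18910 (-0.14), AT3G61430 (-0.08) and AT3G04090 (-0.13). AT4G01470 and AT4G19030 were not tested in that fit. AT1G80760 stayed lower, with 2.604, 2.79, 4.604 and 4.82 CPM in rewatered leaves, against 10.8, 11.6, 12.1 and 25.5 CPM in the T0 controls (log2 fold change -2.02, adjusted p = 0.00299). AT2G25810 (-1.46) stayed lower and AT2G16850 (1.67) stayed higher. The PIPs AT3G53420 (-1.91), AT2G37170 (-1.72) and AT2G37180 (-1.63) were lower against T0. AT3G53420 had 37.6, 40.6, 53.6 and 53.9 CPM in rewatered leaves, against 161, 162, 176 and 193 CPM at T0 and 22.3, 23.2 and 24.2 CPM in the controls at RW.

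Rewatered leaves were also compared with the severely droughted leaves of T2, which sets apart 2 stages as well as 2 treatments. In Mav 5 of 26 members were higher and 9 lower after rewatering, against 17.8% and 15.7% of all genes tested. These comparisons share the droughted T2 libraries with those against controls, so the values are given side by side and no overlap is read from them. AT3G16240 stood 5.58 log2 units higher in rewatered than in droughted leaves, where droughted leaves had stood at -5.78 against controls. AT3G26520 and AT2G36830 were higher by 3.34 and 2.05, and AT1G73190 differed by -6.33. AT5G18290 had 1.21, 1.96, 2.27 and 2.72 CPM in rewatered leaves, against 46.5, 46.6, 46.7, 69.8 and 124 CPM in droughted leaves (-5.03 ± 0.43, adjusted p = 8.62e-06), and AT3G56950 fell too (-1.87). Among PIPs, AT3G53420 (-1.22) and AT2G37180 (-1.31), lower in droughted leaves than in controls, were lower again in rewatered than in droughted leaves, and AT2G45960 (-1.95), AT4G00430 (-2.21), AT4G23400 (-2.70) and AT5G60660 (-3.46) were lower as well. AT4G00430 had 96.1, 123, 127 and 137 CPM in rewatered leaves, against 456, 492, 583, 621 and 638 CPM in droughted leaves. Watered controls differed between these stages as well. The mean PIP sum of Mav controls was 4971 TPM at T2 and 2451 TPM at RW, beside 3337 TPM in droughted and 1554 TPM in rewatered leaves. The part of the stage in these differences was not tested. AT3G04090 (1.08), lost without A28s or A40s, and AT4G18910 (1.04), lost without A28s, A30s, A35s, A42s or A44s, were higher. With near-identical libraries summed, 10 of the 14 calls were kept and 4 lost. All 5 mesophyll markers were higher and all 7 drought markers lower in the same comparison, and their part in the result was not tested.

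In Mmo 3 of 27 members were higher and 10 lower in rewatered than in droughted leaves, against 7.71% and 10.1% of all genes tested. AT1G80760 had 3.73, 3.81, 3.86 and 3.94 CPM in rewatered leaves, against 72.2, 72.5 and 76.4 CPM in droughted leaves (-4.26 ± 0.11, adjusted p = 8.84e-06), with narrow and well separated groups. Mmo controls also differed between the stages, with mean NIP sums of 58.4 TPM at T2 and 26.2 TPM at RW. Droughted and rewatered leaves had 60.6 and 10.6 TPM. Mean PIP sums of the controls were 4724 TPM at T2 and 2450 TPM at RW. The part of the stage was not tested. AT1G73190 and AT1G17810 were lower by -7.31 and -7.61 on the log2 scale. AT3G53420 (-3.02), AT3G16240 (-2.65), AT5G18290 (-1.85), AT3G54820 (-1.35), AT2G37180 (-1.97), AT2G37170 (-1.95) and AT2G45960 (-1.33) were the others lower. Higher were AT2G39010 (2.50), AT3G04090 (1.34) and AT3G26520 (1.28), the last of which lost its call without any single library. AT2G39010 had 34.2, 35.3, 36.6 and 47.6 CPM in rewatered leaves and 4.996, 5.803 and 9.67 CPM in droughted leaves. Leaving out M20s gave 16 calls, and M17s, M19s, M26s, M27s or M28s 9 each, because AT2G45960, AT2G37170, AT2G37180 and AT3G26520 then missed the threshold. With near-identical libraries summed, 0 calls were left, and the lanes of the 2 groups did not overlap. In the same comparison 6 of 7 drought markers, 1 of 5 guard cell markers and the 1 tested root marker were lower. Of the mesophyll markers 2 of 5 were higher. The part of these markers in the result was not tested.

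In Msu 2 of 29 members were higher and 13 lower in rewatered than in droughted leaves, against 6.85% and 10.3% of all genes tested. AT1G80760 had 2.604, 2.79, 4.604 and 4.82 CPM in rewatered leaves, against 79.7, 82.96, 91.7 and 137 CPM in droughted leaves (-4.78 ± 0.31, adjusted p = 0.000179), again well apart. The PIPs AT3G53420 (-3.06), AT2G37170 (-2.47), AT2G37180 (-2.43), AT3G61430 (-3.39), AT4G23400 (-3.16), AT5G60660 (-2.80) and AT1G01620 (-1.84) were lower. So were AT4G01470 (-5.75), AT2G25810 (-2.34), AT4G19030 (-3.13), AT4G18910 (-3.10) and AT5G18290 (-3.14), while AT2G16850 (1.47) and AT5G37820 (2.43) were higher. Without S5s and S8s, 6 members were higher and 17 lower, against 14% and 15.4% of all genes tested, a setting chosen after seeing the data. Leaving out 1 library gave 10 to 18 calls, and AT3G61430, AT1G01620, AT4G23400, AT5G18290 and AT5G60660 lost theirs without S1s, S2s or S4s of the rewatered group, among others. Without both S5s and S8s AT3G61430 was at -1.26, AT3G26520 at 2.80 and AT2G39010 at 3.45. With lane as a term, or with near-identical libraries summed, 0 members were called. Of all genes called, 39.9% were higher by edgeR and 55.7% by limma on log2(TPM + 1). Lower in this comparison were 2 of 7 drought markers, 3 of 3 xylem markers, 1 of 3 phloem markers and the 1 tested root marker. The 1 tested pollen and anther marker was higher. Their part in the result was not tested.

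Rewatered Mmo and Mav were set against each other last. Of 25 members, 1 was higher and 10 were lower in Mmo, against 17.1% and 18.1% of all genes tested. AT3G16240 had 7.41, 9.02, 9.81 and 21.5 CPM in rewatered Mmo, against 85.6, 410.3, 429 and 469.7 CPM in rewatered Mav (-4.89 ± 0.62, adjusted p = 0.000268). Mmo was thus again the lower of the 2, as at T0 and unlike at T2. The other TIPs lower in Mmo were AT3G47440 (-3.86), AT2G36830 (-1.22) and AT3G26520 (-1.03), the last lost without A30s, A38s, A42s, M26s or M28s (-1.23 to -0.93 over these fits). The PIPs AT4G23400 (-3.47), AT2G16850 (-1.68), AT1G01620 (-1.51), AT4G35100 (-1.15) and AT3G54820 (-1.04) and the NIP AT1G80760 (-1.85) were also lower. AT5G18290 (1.62) was the member higher in Mmo. Each group holds 2 distinct profiles among its 4 libraries, and with near-identical libraries summed 0 members were called.

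**Figure D5:**
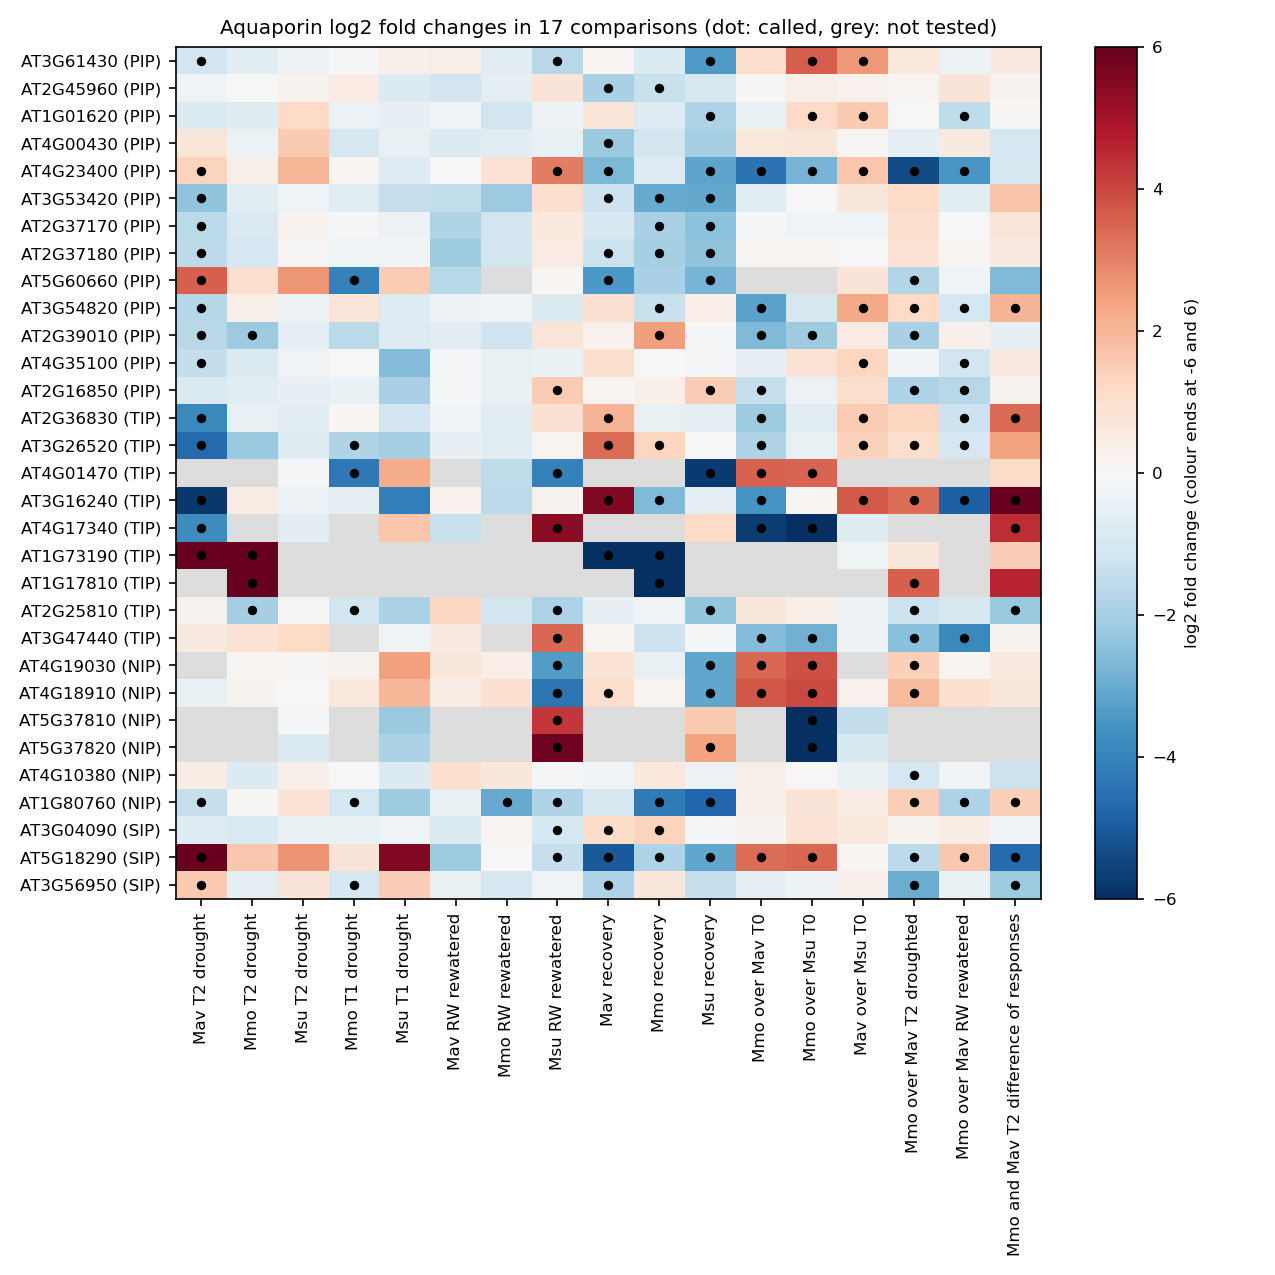
Log2 fold changes of the tested members (rows, by subfamily) in the 17 comparisons (columns), with the colour scale ending at -6 and 6, a dot for a call and grey for not tested. In the column of Mav at T2, 5 of 26 members are called higher and 12 lower, and in that of Msu at T2 none of 29.

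Genes that work beside aquaporins were counted at T2 from lists of Arabidopsis identifiers. Among all genes tested at T2, 11.6% were higher and 16.6% lower in droughted Mav, and 2.21% and 2.27% in droughted Mmo. The lists are short, so their counts are given as description only. Plasma membrane proton pumps, which energise that membrane, had 2 of 9 tested genes higher and 1 lower in droughted Mav, namely AT2G18960 (1.60), AT2G07560 (1.53) and AT4G30190 (-1.01), and 0 called in Mmo. Proton pumps of the tonoplast and endomembranes, which share the vacuolar membrane with TIPs, had 1 of 8 higher in Mav (AT2G21410, 1.19) and 0 in Mmo, and none of them was lower in either species. Boron exporters, which act beside boric acid channels of the NIP class, had 0 of 3 called in both. Of 9 genes for trafficking, turnover and phosphorylation of PIPs, 2 were higher and 1 lower in Mav, AT2G47770 (5.38), AT3G11820 (1.39) and AT5G10020 (-1.53), and 1 was higher in Mmo, AT2G47770 (4.99). The medians of these 4 lists in Mav lay between -0.07 and 0.45 on the log2 scale, against -3.76 for the tested TIPs and -1.15 for the PIPs.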

How the data were processed

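Leaf RNA of 3 Moricandia species was sequenced by the authors on an Illumina HiSeq2000. Reads were mapped for them with BLAT in protein space to a minimal set of TAIR10 coding sequences of Arabidopsis, keeping the best-scoring mappings, so the deposited tables hold estimated counts and TPM per Arabidopsis identifier and no Moricandia gene models. The tetraploidy of Msu was not taken into account in that pipeline, and how reads that match several aquaporins equally well were counted is not given in the sources used here. The estimated counts were deposited as whole numbers and were used as they stand. The deposited TPM sum to 1000000 in every library. In 89 cases an aquaporin had 0 counts in a library where its TPM was above 0.

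The estimated counts were tested in R 4.3.3 with the quasi-likelihood F-test of edgeR 4.0.16 (filterByExpr, TMM), each fit holding the groups compared. P-values were adjusted by Benjamini-Hochberg over all genes tested, and a call needed an adjusted p below 0.05 with a log2 fold change beyond 1 in either direction. Standard errors are the log2 fold change over the square root of F. CPM shown per library are TMM-scaled over all 78 libraries. Total counts per library (22346621 to 41675513) set the precision of low members, and counting intervals cover counting error only. The labels call the libraries biological replicates without saying which plants or pools they came from, so p-values measure the spread between these libraries, which may in part be technical. Library pairs within a group were compared by the median squared difference of their counts (genes with at least 20) over that of counting noise, and pairs under 4 times were treated as near-identical: they were kept as separate libraries, since they differed by more than counting noise, and summed in an alternative. Lanes were read from the file names.

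Alternatives were DESeq2 1.42.0, limma 3.58.1 on log2(TPM + 1), RLE size factors, no filter, another threshold, one fit over all libraries, other controls, near-identical libraries summed, a replicate block and each library left out. The tests were checked on simulated counts with known changes. The simulated libraries were independent, so the check does not cover groups that hold near-identical ones. Values are given for every member called in a comparison and for the most abundant members of each subfamily (4 PIPs, 2 each of TIPs, NIPs and SIPs), and members with a median count under 10 in every group by range. Of the companion lists, up to 4 genes with the largest change among those called at T2 are named. Subfamilies and companion lists rest on Arabidopsis identifiers that the files do not annotate. The members and lists were chosen with earlier results of these data known.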

Additional observations from a re-analysis of the deposited data

Results flagged for a closer look

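The summed TPM of a subfamily was checked in each group of 4 or more libraries for one that lies apart, by the gap to its nearest neighbour over the range of the group. Of 56 such checks 14 found one. Chance alone gives about 1 in 20 among independent libraries, which does not apply to groups that hold near-identical ones: 12 of the 14 came from the 36 checks in such groups and 2 from the 20 checks in the others. For PIPs these were A35s of droughted Mav at T2 (4370.3 TPM), M22c of the Mmo controls at RW (4841 TPM), S35c of the Msu controls at T1 (3579 TPM) and S2s of droughted Msu at T2 (6452 TPM). For TIPs they were A40s of rewatered Mav (750.1 TPM), A22c of the Mav controls at T2 (1244 TPM) and M6c of the Mmo controls at T1 (1369.9 TPM). NIP sums stood apart in A40s (34.3 TPM), M22c (41.6 TPM), M25s of rewatered Mmo (5.77 TPM), S42 of Msu at T0 (30.04 TPM) and S2s of droughted Msu at T2 (103 TPM), and SIP sums in A40s (68.7 TPM) and S42 (44.5 TPM). In the groups of A40s, S42 and M25s the other 3 libraries are near-identical, so the library named is 1 of only 2 distinct profiles and is not shown to be an outlying one.

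In the main fit, the test of the difference itself called the response to severe drought different between Mmo and Mav in 8 members. Of these calls, 3 were kept with lane as a term and 3 with near-identical libraries summed. With each library left out in turn, AT4G17340 was called in 4 of 15 fits, AT3G54820 in 5 and AT1G80760 in 6. The log2 fold change in Mmo minus that in Mav was 6.25 for AT3G16240, 4.41 for AT4G17340, 3.39 for AT2G36830, 2.02 for AT3G54820 and 1.45 for AT1G80760. It was -4.63 for AT5G18290, -2.20 for AT2G25810 and -2.12 for AT3G56950. The 2 Mmo controls at T2 enter every one of these values.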

How the results depend on the processing

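Of the counts of called aquaporins under other settings (leaving out a library aside), 116 stayed within 1.5 times the value reported and 35 did not. Among fold changes of single members followed in the same settings, 1643 kept their call or, where not called, stayed within 1 standard error, 175 lost a call, 46 gained one, 56 that were not called moved further and 7 turned. For droughted Mav at T2 against controls, counts lay between 14 and 22. For each count that moved, the cause was not tested beyond what the setting itself changes.

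At an adjusted p under 0.01, 0 members were called in Mmo at T2, 0 in Mmo at RW, 8 in the Mmo and 9 in the Msu recovery, 8 between droughted Mmo and Mav and 2 in the difference of responses. Without a fold limit 25 were called in Msu at RW. With near-identical libraries summed, which leaves fewer samples, the counts were 2 (Mmo T2), 3 (Mmo T1), 0 (Mmo RW), 0 (Mmo recovery), 0 (Msu recovery), 2 (Mav over Msu at T0), 9 (droughted Mmo over Mav), 0 (rewatered Mmo over Mav) and 3 (difference of responses). One fit over all 78 libraries gave 3 (Mmo T1), 10 (Msu T1), 4 (Mav RW), 2 (Mmo RW) and 5 (difference of responses). DESeq2 gave 11 (Msu T1), 5 (Mav RW) and 5 (Mmo RW), limma on TPM 1 each for Mmo T1, Msu T1 and Mav RW, and no filter on low counts 3 for Msu T1. With the Msu T0 controls as reference, 9 were called at T2 and 7 at RW. Chosen after seeing the data were 14 for Msu T2 (S2s and S4s against T0 controls), 23 for the Msu recovery without S5s and S8s, and fits with lane as a term, which gave 2 (Mmo T1), 0 (Msu recovery) and 3 (difference of responses).

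Leaving out each library in turn gave 16 to 18 calls in Mav, 0 to 5 in Mmo and 0 to 0 in Msu at T2, 3 to 7 in Mmo and 0 to 5 in Msu at T1, and 0 to 2 in Mav, 0 to 5 in Mmo and 13 to 15 in Msu at RW. It gave 12 to 17, 9 to 16 and 10 to 18 in the recovery of Mav, Mmo and Msu, and 12 to 14, 10 to 15 and 8 to 10 at T0 for Mmo over Mav, Mmo over Msu and Mav over Msu. For Mmo over Mav it gave 10 to 16 droughted, 10 to 13 rewatered and 1 to 9 in the difference of responses.

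Among these members, which are those called and the most abundant ones, directions changed in 7 cases with a call on either side. Against T0 controls AT4G35100 stood at 1.05 in Msu at T2, and at RW AT4G23400 at -1.61, AT2G37170 at -1.72, AT5G37810 at -0.51, AT5G37820 at -0.45 and AT5G18290 at 1.49. AT3G04090 stood at 1.11 in the Msu recovery without S5s and S8s. Outside that set, AT3G61430 (3.28) and AT4G01470 (3.80) in Msu at T2 and AT3G53420 (-1.91) and AT2G37180 (-1.63) at RW, all against T0 controls, and AT2G39010 (3.45) in that recovery setting, also turned and were called. On the TPM scale the median over all genes shifted by over 0.1 for Mmo T1 (0.25 against -0.02), Mmo RW (0.10 against -0.02), Mav RW (0.11 against -0.05), Msu RW (-0.10 against 0.01), Mmo over Msu at T0 (-0.10 against 0.02) and the Msu recovery (0.07 against -0.07).

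The names S2s and S4s occur in Msu at both T2 and RW. Deviations of the same-named libraries correlated at 0.127 and -0.04. These are only 2 pairs, and the deviations were taken from a T2 mean that includes S5s and S8s, so whether the names mark shared plants remains unknown. With the replicate block, 14 members were called in the Msu recovery and 10 of the 15 calls were kept. Depth limited the low members, of which 4 could not be tested.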
